A study of Mus musculus with 2207 samples.

Results

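Small nuclear RNAs were followed in single nuclei of mouse brain cortex, as the genes of the GENCODE gene type snRNA that had a value above 0 in at least 10% of the neuronal nuclei of the WT or of the Ehmt1Δ/+ pool in both plate formats. They made up 11.9% of the 1383 snRNA genes among the 52636 rows of the expression tables. The WT pools brought in 160 of them and the Ehmt1Δ/+ pools alone a further 4, and since they were chosen by these detected values in neurons, the shares of neurons above 0 are given as a description only. By alignment to the snRNA genes that carry a name of their own, 32 were U1, 12 were U2, 56 were U6-like, 1 was U11 (Rnu11), and 57 stayed unassigned. A further 6 genes were grouped with each other as U4-type, since the annotation holds no gene named U4 and the leading sequence of the group starts as U4 RNA does.

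The nuclei came from male mice of 14 weeks, labelled C57BL/6 (C57BL6/J in the study's methods), that had all received tamoxifen at 3 weeks, 100 mg/kg given 2 times, and each pool was made from 3 mice. In 96-well plates the pools were WT (Ehmt1+/+) and Ehmt1Δ/+, which carries 1 deleted Ehmt1 allele. In 384-well plates the pools labelled WT and Ehmt1Δ/+ also carried the transgene Ehmt1 iTg without CamKII-CreER, and 2 further pools, iTg and Ehmt1Δ/+; iTg, carried both. The study's text describes the 384-well groups as mice with CamKII-CreER throughout, and the labels were followed here. The transgene expresses FLAG-tagged GLP, the histone H3K9 methyltransferase that Ehmt1 encodes, after Cre acts, and CamKII-CreER drives Cre in neurons, so the glia of those pools are not its target. In all, 2207 nuclei were measured, of which the labels call 1664 neurons, 397 oligodendrocytes and the rest microglia.

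Small nuclear RNAs are the RNA part of the spliceosome. U1 pairs with the 5′ splice site, U2 with the branch point, and U4 delivers U6, which takes over from U1 and forms the catalytic centre with U2. U11 replaces U1 at the rare introns of the minor spliceosome. Most are made by RNA polymerase II, bound by a ring of Sm proteins and trimmed, while U6 is made by RNA polymerase III. The mouse genome holds tandem arrays of genes that make them and many scattered copies, most of them taken to be pseudogenes.

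Per the labels, the assay was RamDA-seq, which primes total RNA and so also counts RNA without a poly(A) tail. The read total per neuron had a median between 323273 and 397880 in the 6 pools. For glia it ran from 441701 to 510639 in the 96-well pools, but only from 39940 to 54877 in the 384-well pools. Snap25, the neuronal marker, had a mean from 62.99 to 131.1 RPKM (reads divided by gene length and by the nucleus's read total) in the neuron pools. Olig1, Ctss and Cldn5, which mark oligodendrocytes, microglia and endothelium, stayed at 0.604 RPKM or less there. Ehmt1, the targeted gene, went against its label. Among 96-well neurons it had 18.7 RPKM in the WT pool but 31.2 RPKM in the Ehmt1Δ/+ pool, and among 384-well neurons it had 19.5 and 31.7 RPKM. This is a value over the whole gene, and the deleted part is not given in the sources used here, so it does not check the deletion, and the groups below are pools labelled Ehmt1Δ/+ or WT.

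The sequences of the highest U1 copy, Gm22513, and of the named copies Rnu1a1 and Rnu1b1 show how alike U1 copies are. They are given 5′ to 3′ as DNA from GENCODE M21 on GRCm38 (mm10), and the capitals mark bases 3 to 11, which pair with the 5′ splice site. Rnu1a1 lies at chr11:87422867-87423030 on the plus strand in an intron of Tex14, Gm22513 at chr12:54696782-54696945 on the plus strand between genes, and Rnu1b1 at chr3:96359953-96360117 on the minus strand between genes.
Rnu1a1: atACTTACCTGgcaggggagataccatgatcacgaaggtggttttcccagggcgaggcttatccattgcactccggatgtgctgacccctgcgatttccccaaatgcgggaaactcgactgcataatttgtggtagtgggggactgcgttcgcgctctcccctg
Gm22513: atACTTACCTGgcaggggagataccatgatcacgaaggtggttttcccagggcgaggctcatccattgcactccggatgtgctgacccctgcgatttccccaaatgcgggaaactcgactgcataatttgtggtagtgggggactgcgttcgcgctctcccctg
Rnu1b1: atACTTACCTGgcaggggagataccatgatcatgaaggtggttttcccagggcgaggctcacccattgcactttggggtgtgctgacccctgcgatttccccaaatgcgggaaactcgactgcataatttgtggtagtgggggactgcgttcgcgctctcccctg

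Counting bases from 1 at the 5′ end, Gm22513 differs from Rnu1a1 by T60C alone. A group of 7 U1 members (Gm22068, Gm22317, Gm22634, Gm23804, Gm25679, Gm26444 and Rnu1a1) had the same sequence throughout, and their levels in WT neurons of the 96-well plates ranged from 106.1 to 291.7 RPKM. The 9 capital letters stood in 24 of the 32 U1 members, in 3 of the 57 unassigned members and in 3.98% of all 1383 snRNA genes. All letter searches read the RNA strand only.

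The U4-type group was led by the neighbours Gm24265, at chr5:115489459-115489599, and Gm24407, at chr5:115490254-115490394, both on the plus strand between genes. Gm24407 differs from Gm24265 by G88A and C99A. Capitals mark the Sm protein site, ATTTTTG, which stood in 2 of the 6 members of this group, in 11 of the 12 U2 members and in 3.33% of all snRNA genes.
Gm24265: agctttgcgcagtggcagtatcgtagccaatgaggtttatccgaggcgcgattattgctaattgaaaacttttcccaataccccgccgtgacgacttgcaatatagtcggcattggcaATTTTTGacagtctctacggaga
Gm24407: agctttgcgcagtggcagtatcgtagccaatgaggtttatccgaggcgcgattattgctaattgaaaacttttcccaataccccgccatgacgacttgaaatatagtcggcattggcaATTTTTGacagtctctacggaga

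For U2 and U11 the members with a name of their own are shown. Rnu2-10 lies at chr11:101658238-101658428 on the plus strand between genes, and its capitals GTAGTA, at bases 33 to 38, pair with the branch point and stood in 11 of the 12 U2 members and in 3.69% of all snRNA genes. Rnu11 lies at chr4:132270080-132270213 on the minus strand inside an exon of Gm28872, which runs on the other strand, and its capitals, at bases 89 to 95, mark the Sm site.
Rnu2-10: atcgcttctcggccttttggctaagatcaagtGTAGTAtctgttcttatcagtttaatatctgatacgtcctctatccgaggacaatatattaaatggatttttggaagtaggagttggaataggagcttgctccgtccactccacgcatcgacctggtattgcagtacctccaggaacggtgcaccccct
Rnu11: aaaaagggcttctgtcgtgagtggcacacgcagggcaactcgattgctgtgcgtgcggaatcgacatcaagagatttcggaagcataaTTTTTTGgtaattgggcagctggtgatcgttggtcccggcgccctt

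Most U6-like and unassigned members had a sequence of their own, with Gm24722 and Gm24967 as an identical pair among the U6-like members. Shown are 2 whose surrounding genes are compared with them further on, Gm24340 (chr2:7350097-7350193, plus strand, in an intron of Celf2 on the other strand) and Gm24552 (chr7:91242995-91243097, plus strand, in an intron of Dlg2 on the same strand). Gm24552 was classed as unassigned, since it matched the named U6 gene over too short a stretch, and was chosen for display after its values were seen. The capitals mark ACAGAGA, the stretch of U6 that pairs with the 5′ splice site, which stood in 39 of the 56 U6-like members, in 12 of the 57 unassigned members and in 42.2% of all snRNA genes.
Gm24340: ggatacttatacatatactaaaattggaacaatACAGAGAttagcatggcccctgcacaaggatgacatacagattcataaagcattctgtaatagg
Gm24552: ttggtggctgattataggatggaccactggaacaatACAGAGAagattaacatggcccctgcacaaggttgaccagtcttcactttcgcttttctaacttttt

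The classes also differed in their place in the genome. Of the 56 U6-like members 52 lay in introns of other genes, 38 of them on the opposite strand, and of the 57 unassigned members 49 did, 20 of them on the opposite strand. Among U1 members 16 lay between genes, 13 in introns and 3 over exons.

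Reads that match several copies had been divided among them, in steps down to 0.1 of a read. Only 3 of the 32 U1 members had whole reads, to within 0.02 of a read, in over 90% of the nuclei that detected them. The same held for 1 of the 12 U2, 3 of the 6 U4-type, 46 of the 56 U6-like and 50 of the 57 unassigned members. The study names featureCounts at default settings, which drops such reads and gives whole counts, so the values do not match that statement and the settings behind them are not given in the sources used here. U1, U2 and the U4-type group were therefore also summed over their members, in RPM (reads scaled so that all reads of a nucleus add up to 1000000), since the sum depends less on how reads were divided.

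U1 was the largest class in neurons of the 96-well plates, and it was shared with glia. The U1 sum in neurons was 343.3 RPM in WT and 177.9 RPM in Ehmt1Δ/+ of the 96-well pools. Among the 384-well pools it was 644 RPM in WT, 374 in Ehmt1Δ/+, 386 in iTg and 299.3 in Ehmt1Δ/+; iTg. WT was the highest pool in each plate format. Oligodendrocytes held 273.4 and 137.5 RPM, then 587, 356.3, 356.4 and 292.9 RPM, in the same order of pools. Microglia held 249.5 and 137.6 RPM, then 645, 443, 432 and 295.3 RPM.

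U2 was over 10-fold less abundant than U1 and moved little between pools. Its sum in neurons was 16.98 and 15.2 RPM for the 96-well pools, and 17.3, 14.98, 19.1 and 15.4 RPM for the 384-well pools. The U4-type sum in neurons was 87.3 and 76.6 RPM, but 695, 543, 779 and 417 RPM for the 384-well pools. U6-like members had 113.7 and 136.5 RPM, then 69.5, 67.3, 55.7 and 122.005 RPM, so that they were lower in 3 of the 4 pools of 384-well plates than in both pools of 96-well plates. Unassigned members followed the U6-like pattern, with 135.6, 146.9, 79.2, 77.2, 67.8 and 118.6 RPM.

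**Figure D1:**
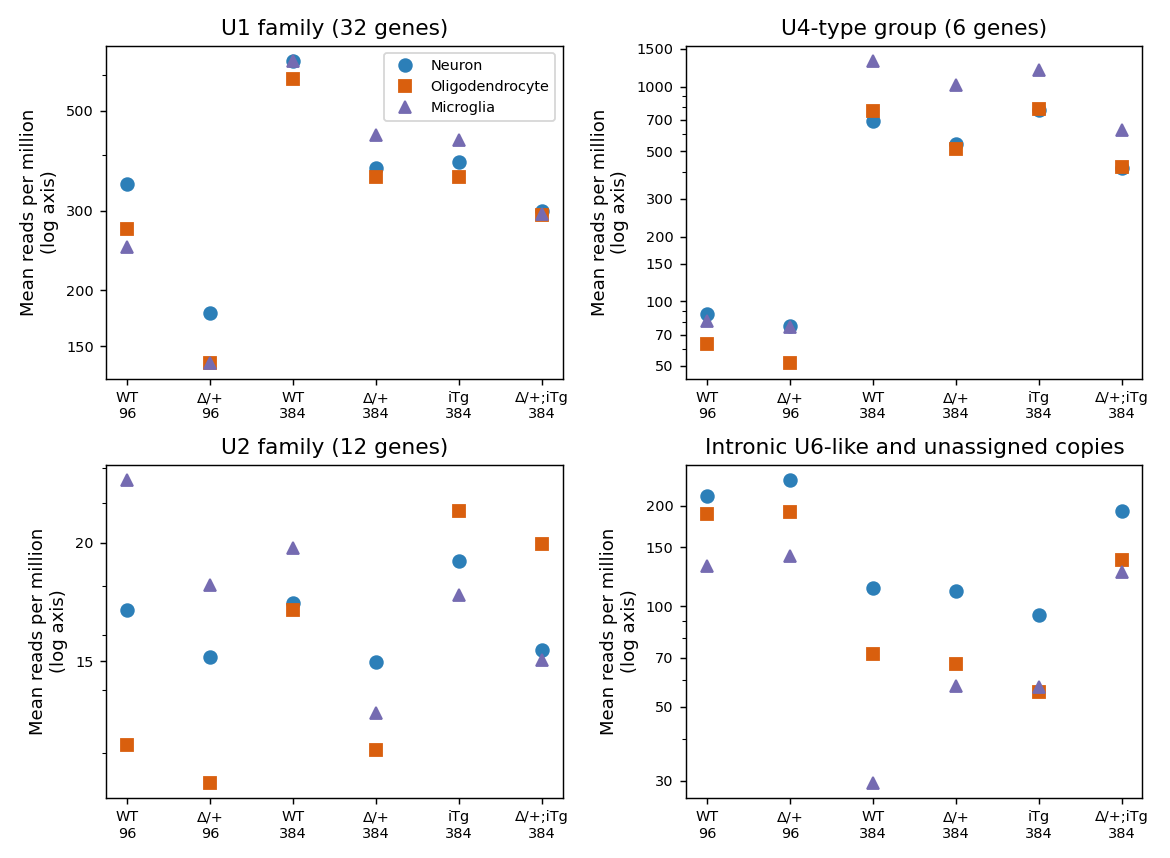
Mean reads in RPM (log axis) of U1, U4-type and U2 members and of the intronic U6-like and unassigned copies in each of the 6 pools, with 1 point per cell type label and no error bars since each point is 1 pool. U1 is highest in WT within each plate format for neurons (343.3 and 644), and the U4-type sum of neurons is 87.3 or less in 96-well plates and 417 or more in 384-well plates.

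Single copies ranged widely within a class. The mean over the 6 neuron pools ran from 0.650 to 539 RPKM among U1 members, from 1.15 to 12.9 RPKM among U2 members and from 1.69 to 153.2 RPKM among U6-like members. Gm22513 was the highest U1 copy, at 401 RPKM in WT and 216.7 in Ehmt1Δ/+ neurons of the 96-well pools, and 1185, 694, 406 and 331.9 RPKM in the 384-well pools (WT, Ehmt1Δ/+, iTg, Ehmt1Δ/+; iTg). Rnu1a1 had 106.1, 55.3, 200.9, 116.1, 144.05 and 107.7 RPKM in the same 6 pools. Both copies were highest in the WT pool of the 384-well plates. The U1b genes of the array on chromosome 3 were far lower, with Rnu1b1 between 2.49 and 10.9 RPKM, Rnu1b2 between 0.33 and 1.98 and Rnu1b6 between 3.70 and 15.5. Rnu6, the named U6 gene and not a member, was at 1.29 RPKM or less in every neuron pool.

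The comparison of Ehmt1Δ/+ with WT asked whether loss of an Ehmt1 allele came with other snRNA levels. It was tested with limma on the mean RPKM per pool, on the log2(RPKM + 0.1) scale, with 2 pools per genotype, the plate format as a term and Benjamini-Hochberg adjustment over 23853 genes in neurons. No member, and no gene at all, passed an adjusted p of 0.05 (0% of genes in either direction, lowest adjusted p 0.461). The fit has 1 residual degree of freedom. An exact permutation test of 2 pools against 2 that ignores the plate format cannot go below 0.33. Swaps within a format allow still fewer arrangements. The values below are therefore given as sizes and counts. The labels give no further cultures or mice, so p-values measure the spread between pools only. Standard errors (SE) below are moderated by limma towards the spread over all genes, so they are not the precision of 1 gene alone.

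U1 members were lower in the pools labelled Ehmt1Δ/+ in both plate formats. This was so for 29 of the 32, against 35% of all genes tested, and 26 of the 32 were lower by more than 1.5-fold in both formats, against 1.02% of all genes. By limma 27 of the 32 had an unadjusted p under 0.05 with the lower level in Ehmt1Δ/+, against 6.99% of all genes, and none the other way (3.19%). The median log2 difference was -0.88 over U1 members and -0.03 over all genes. Most copies share reads, so these counts hold far fewer independent measurements than genes. Detection in either genotype was enough for a member to enter, and more members passed in WT than in Ehmt1Δ/+. A copy that passed in WT alone is prone to be lower in Ehmt1Δ/+. How many U1 members passed in WT alone was not counted, and the part of this choice in the U1 counts was not tested. The genes of the background were chosen by the same rule. The U1 sum was 1.93-fold higher in WT in the 96-well pools and 1.72-fold higher in the 384-well pools.

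The 5 members ranking lowest in both formats were all U1 copies, Gm24830, Gm24136, Gm26232, Gm22220 and Gm23330. Of these, Gm24830 and Gm26232 have the same sequence, which is also that of Rnu1b6. Gm22220 had 59.6 and 30.5 RPKM in the 96-well pools, and 106.4 and 57.6 RPKM in the 384-well pools (WT, then Ehmt1Δ/+), a log2 difference of -0.93 ± 0.10 (SE) with an adjusted p of 0.461 by limma. The WT pool was the higher in each format. Gm24830, at 1.12, 0.43, 3.55 and 1.68 RPKM, had the largest difference of any U1 member, -1.12 ± 0.11 (SE). For Gm22513 the difference was -0.83 ± 0.11 and for Rnu1a1 -0.87 ± 0.11, also with an adjusted p of 0.461 by limma.

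Of the U1 members, 3 were not lower in Ehmt1Δ/+ in both formats, and they are named here after their values were seen. Gm23928, in an intron of the scaffold gene Dlg2 on the other strand, had 8.29 and 9.45 RPKM in the 96-well pools, and 13.0005 and 15.4 RPKM in the 384-well pools. Gm26121, in an intron of Zzef1, and Gm24145, in an intron of Zc3h7a, had log2 differences of -0.26 and -0.04 in the 96-well pools and of 0.33 and 0.46 in the 384-well pools. These were the 3 U1 members with over 90% whole reads. Gm23240, an unassigned member 89.5% identical to Rnu1a1 over its aligned part, had 12.5, 6.07, 30.03 and 17.8 RPKM and a difference of -0.89 ± 0.13 (SE).

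**Figure D2:**
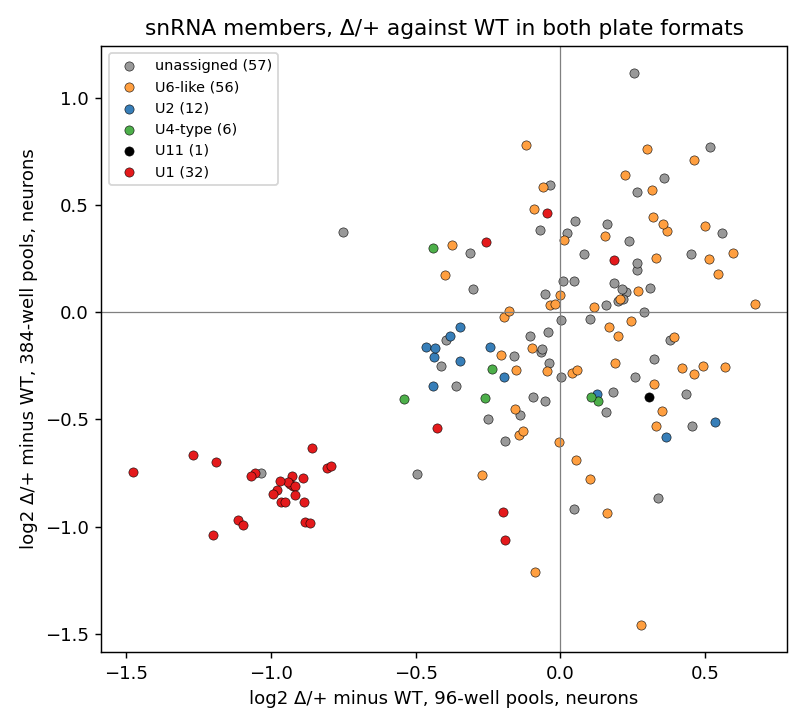
Log2 of Ehmt1Δ/+ over WT in neurons for each member, from the 96-well pools (horizontal axis) and the 384-well pools (vertical axis), coloured by class. Most U1 members lie below -0.58 (1.5-fold) on both axes, with a median of -0.88, while U6-like members lie on both sides of 0 with a median of 0.05.

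The other classes had medians closer to 0. Of the 12 U2 members 9 were lower in both formats, against 35% of all genes. None was lower by 1.5-fold in both (1.02% of all genes), and their median was -0.25. Of the 6 U4-type members 3 were lower in both formats, against the same 35%, with a median of -0.20. U6-like members had a median of 0.05, with 11 of 56 lower and 18 higher in both formats, against 35% and 23.6% of all genes, and unassigned members a median of 0.03, with 16 of 57 lower and 23 higher. At an unadjusted p under 0.05 by limma, 9 of the 56 U6-like members were higher and 1 lower. Of the 57 unassigned members 5 were higher and 5 lower. Of the U2 members 1 was lower, and of the U4-type members 2, with none higher. Over all genes 6.99% were lower and 3.19% higher. The 5 members ranking highest in both formats were Gm22733, Gm24207, Gm25930, Gm25235 and Gm23741. Gm22733, in an intron of the decay factor gene Smg6, had 16.05 and 23.04 RPKM in the 96-well pools, and 12.8 and 21.9 RPKM in the 384-well pools, and its difference of 0.64 ± 0.12 (SE) had an adjusted p of 0.461 by limma.

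The U1 sum also varied between the plates of a pool. Each 96-well pool was spread over 4 plates of 60 to 71 neurons, which are parts of 1 pool and not replicates of a genotype. The U1 sum per plate was 278.1, 291.04, 391 and 413 RPM in WT and 118.1, 137.1, 217.2 and 250.4 RPM in Ehmt1Δ/+, so the plates did not overlap. The mean was 343.3 ± 68.6 RPM in WT and 180.7 ± 63.3 RPM in Ehmt1Δ/+ (SD, n = 4 plates). In the plate titles 3 codes occur in both genotypes, and the labels do not say what a code marks. For the plates of the first shared code U1 was 278.1 RPM in WT and 250.4 RPM in Ehmt1Δ/+, a log2 difference of -0.15, and for the other shared codes it was 391 and 137.1 RPM (-1.51) and 413 and 118.1 RPM (-1.81). The difference therefore ran from near 0 to over 3-fold between codes.

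In the 384-well plates the WT pool has a code of its own, and the other 3 pools share 1 code, so that code and genotype cannot be told apart there. Among the pools of that shared code, iTg, which is Ehmt1+/+, had a U1 sum of 386 RPM and Ehmt1Δ/+ had 374, a log2 difference of -0.044. Ehmt1Δ/+; iTg, at 299.3 RPM, was lower than iTg by 0.37 on the log2 scale.

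Rn7sk, the 7SK RNA that holds the elongation factor P-TEFb and is made by RNA polymerase III, moved with U1 from plate to plate. It had 148.1, 150.04, 181.2 and 198.6 RPM in the WT plates and 156.7, 63.9, 57.7 and 90.6 RPM in the Ehmt1Δ/+ plates, where U1 was 250.4, 137.1, 118.1 and 217.2 RPM. The plates that were low in U1 were low in Rn7sk, and the genotypes overlapped. The sum of rRNA genes was 4331 to 5508 RPM in WT plates and 2241 to 3222 in Ehmt1Δ/+ plates, and that of mitochondrially encoded genes 1501 to 1866 and 429 to 589. In the 384-well pools rRNA genes were also lower in Ehmt1Δ/+ (12287 and 10098), while mitochondrially encoded genes were higher (855 and 1992). The part of these RNAs in the U1 difference was not tested. U6-like members were higher in Ehmt1Δ/+ in the 96-well plates, at 106.1 to 120.6 RPM in WT plates and 133.4 to 140.5 RPM in Ehmt1Δ/+ plates, but not in the 384-well pools (69.5 and 67.3).

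**Figure D3:**
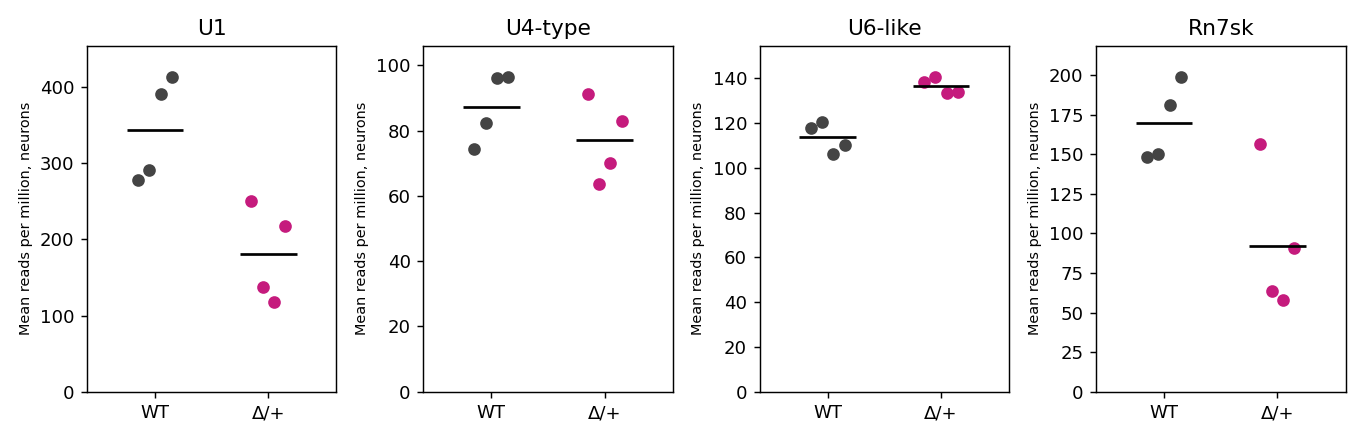
Mean reads in RPM in neurons of each of the 4 96-well plates per genotype, for U1, U4-type and U6-like members and for Rn7sk, with a line at the mean over plates. U1 plates span 278.1 to 413 in WT and 118.1 to 250.4 in Ehmt1Δ/+, and those of Rn7sk overlap (148.1 to 198.6 and 57.7 to 156.7).

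The U1 level was also lower in the glia of the pools labelled Ehmt1Δ/+. In oligodendrocytes the log2 difference of the U1 sum was -0.99 for the 96-well pools and -0.72 for the 384-well pools, and in microglia it was -0.86 and -0.54. Of the 27 U1 members tested in oligodendrocytes 25 were lower in both formats, against 28.1% of the 12832 genes tested, with a median of -0.87. Of the 27 tested in microglia 24 were, against 25.7% of 13686 genes, with a median of -0.70. No gene passed an adjusted p of 0.05 by limma in either label. At an unadjusted p under 0.05 by limma, 20 U1 members were lower in oligodendrocytes, against 3.04% of genes lower and 1.68% higher. No U1 member was in microglia, where 1.03% of genes were lower and 0.899% higher. The glia share plates and pools with the neurons, so they are not a further sample of each genotype. Genes tested in glia also entered by detection in either genotype, so the limit given for the counts in neurons holds here too.

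Neurons were split by whether Slc17a7 (the vesicular glutamate transporter of excitatory cells) or Gad1 (glutamate decarboxylase of inhibitory cells) was larger. The U1 sum was 346.9, 181.5, 666, 373, 405 and 301.2 RPM in the former and 332.4, 159.8, 586, 379, 311.96 and 290.6 RPM in the latter, in the order of pools used above. The difference between genotypes in each format was present in both kinds of neuron.

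The U4-type group differed by plate format. Gm24265 had 291.8 and 243.7 RPKM in neurons of the 96-well pools (WT, Ehmt1Δ/+) and 3398, 2575, 3670 and 1926 RPKM in the 384-well pools. Gm24407 had 220.4 and 187.2 RPKM, then 1478, 1231, 1812 and 941. No pool of one format overlapped the other. The U4-type sum in WT was 7.96-fold higher in the 384-well plates in neurons, 12.2-fold in oligodendrocytes and 16.2-fold in microglia. In neurons 3 of the 6 U4-type members, and Rnu11, were over 4-fold higher in the 384-well WT pool, against 0.117% of all genes, while 47 of the 56 U6-like and 47 of the 57 unassigned members were lower there, against 62.2%. The WT pools of the formats differ in genotype as well, since the 384-well pool carries the iTg transgene, so format and transgene cannot be told apart.

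The remaining 3 U4-type members lie in introns and had reads that were mostly not divided with other copies. Such reads cannot be told apart from those of the intron around the copy. Gm22116, in an intron of Slc35f4 on the same strand and named after its values were seen, had 71.99 and 78.9 RPKM in the 96-well pools, and 21.6, 16.2, 17.4 and 50.7 RPKM in the 384-well pools. It thus went the other way from Gm24265. In oligodendrocytes it was at 0 in 5 of the 6 pools and at 0.24 RPKM in the other.

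Rnu11 was detected more widely in the 384-well pools. Its mean was 1.82 and 2.27 RPKM in the 96-well neurons and 9.47, 7.17, 9.75 and 4.76 in the 384-well neurons, with 15.02% and 18.1%, then 52.98%, 37.3%, 49.5% and 26.1% of nuclei above 0. Its value tracked that of Gm28872, the gene it overlaps on the other strand, with a median Spearman correlation of 0.999 across the neurons of a pool. The ratio of the RPKM of both was within 1% of its median in at least 99.3% of the neurons of every pool that held both. This is as when the same reads are counted for both genes, so their values are not separate measurements. In U2 the named copy Rnu2-10 had 10.4 and 8.14 RPKM, then 14.6, 13.9, 18.5 and 11.1. Its difference between Ehmt1Δ/+ and WT was -0.21 ± 0.12 (SE), with an adjusted p of 0.624 by limma.

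Many copies differed between the cell type labels. Over 4-fold higher levels in neurons than in oligodendrocytes, as means over the 6 pools, were found for 29 of the 56 U6-like and 27 of the 57 unassigned members, and for 3 of the 32 U1, 3 of the 12 U2 and 2 of the 6 U4-type members, against 28.5% of all genes tested in neurons. Levels were higher in neurons in all 6 pools for 29 of the U6-like, 26 of the unassigned and 15 of the U1 members, against 46.3% of all genes. The labels come from clusters of the same nuclei and the members were chosen in neurons, so this is a description with no test. Gm25578 had 139.2, 222.3, 120.4, 123.8, 87.4 and 225.8 RPKM in the neuron pools. It was detected in 0 of 73 WT oligodendrocytes of the 96-well plates, which allows a share of up to 4.11% by a limit of 3 nuclei (4.93% as the upper bound of a 95% exact binomial interval), and in 49.4% of the WT neurons there (95% exact binomial interval 43.1 to 55.7). Of the 6 oligodendrocyte pools 1 had a value above 0 (5.63 RPKM), and so had 1 of the 6 microglia pools (30.1 RPKM, from 1 nucleus of 20). Intervals and limits of this kind cover counting error only.

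Gm24552 had 134.3, 168.1, 69.5, 59.8, 46.8 and 110.4 RPKM in neurons, and was at 0 in all microglia pools and in 5 of the 6 oligodendrocyte pools. Gm24340 had 91.7, 114.4, 22.8, 33.97, 28.4 and 64.2 RPKM in neurons and was at 1.39 RPKM or less in all glia pools. Both lie in genes with more RNA in neurons than in oligodendrocytes, Dlg2, which encodes a synaptic scaffold (30.4 and 18.5 RPKM as means over the 6 pools), and Celf2, which encodes an RNA-binding protein (35.1 and 1.16 RPKM). Some copies had the reverse order and are named after their values were seen. Gm24060, in an intron of Cyth1, had 24.3 RPKM in neurons but 295.8 RPKM in oligodendrocytes of the WT pool in 96-well plates. Cyth1 had 26.8 and 121.4 RPKM as means over the 6 pools. Gm22500, in an intron of the adhesion gene Igsf11, had 13.1 and 102.2 RPKM in that pool.

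The copies and the genes around them shared this order. Intronic members whose surrounding gene was above 1 RPKM were compared with it, 52 on the same strand and 60 on the opposite strand. The log2 difference between neurons and oligodendrocytes had the same sign as that of the surrounding gene in 42 of the 52 and in 48 of the 60. Across these members, which share pools and are not independent, Pearson's r was 0.79 and Spearman's rho 0.79. It was 0.74 (Pearson) for the copies on the same strand and 0.84 for those on the opposite strand. The counting is not stated to use strand, and Rnu11 kept a nearly fixed ratio to Gm28872 on the other strand. Reads of the copy and of the intron around it therefore cannot be told apart. From nucleus to nucleus the link was weak, with a median Spearman correlation of 0.14 between copy and surrounding gene. The closest after Rnu11 were Gm22500 with Igsf11 (0.63), Gm23865 with Odf2 (0.54), Gm24340 with Celf2 (0.49) and Gm22543 with Lsamp (0.43).

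**Figure D4:**
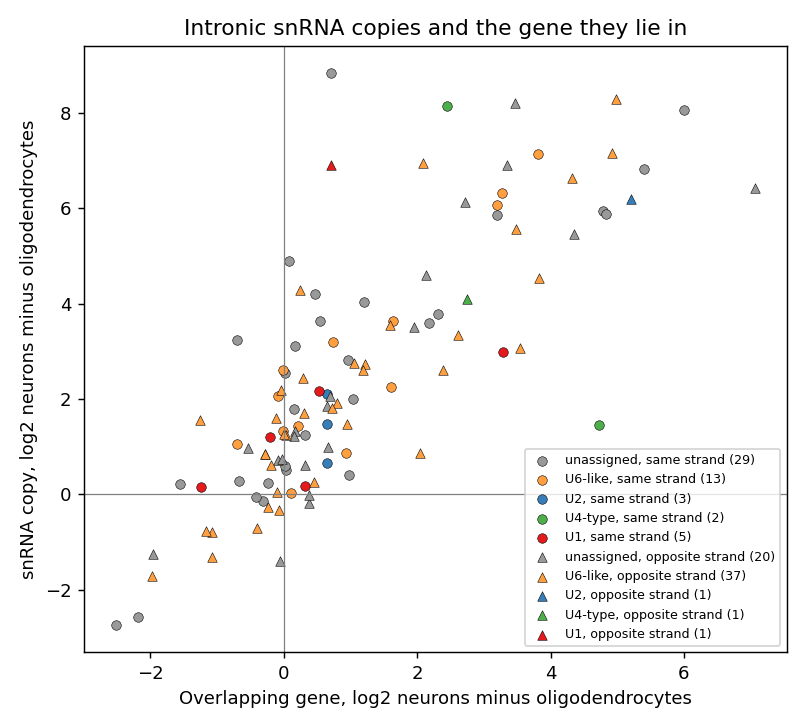
Log2 of neurons over oligodendrocytes, as means over 6 pools, for the surrounding gene (horizontal axis) and the intronic snRNA copy (vertical axis), with circles for copies on the same strand and triangles for the opposite strand. Copy and gene have the same sign in 42 of 52 on the same strand and 48 of 60 on the opposite strand, and U6-like and unassigned copies on both strands spread over the whole range.

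These copies also differed among the pools of 384-well plates. The sum over intronic U6-like and unassigned members in neurons was 113.5, 110.7 and 94.2 RPM in WT, Ehmt1Δ/+ and iTg, and 193.05 RPM in Ehmt1Δ/+; iTg, beside 214.5 and 238.4 RPM in the 96-well pools. Ehmt1Δ/+; iTg was the highest of the 4 384-well pools for 49 of the 56 U6-like and 45 of the 57 unassigned members, against 50.5% of all genes tested. It was the lowest for 25 of the 32 U1 members, against 23.8% of all genes. Snap25 was also highest in Ehmt1Δ/+; iTg, with the other 3 pools in another order, at 62.99, 64.3, 66.3 and 118.02 RPKM. The other neuronal markers were mixed. Syt1 was highest in that pool too, at 42.96, 39.9, 39.6 and 51.97 RPKM. Rbfox3 was lowest there, at 42.1, 44.1, 41.1 and 37.7 RPKM, and Slc17a7 and Gad1 were neither highest nor lowest there. The sum of snoRNA genes, also mostly intronic, was 821, 771, 721 and 1025 RPM. With 1 pool of this genotype no test was possible, and the part of the pool as a library was not tested.

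The ratio of the U1 copy Gm22513 to Rnu1a1 differed by pool in all 3 cell type labels. Gm22513 had 3.78 and 3.92 times the RPKM of Rnu1a1 in neurons of the 96-well plates, 5.90 and 5.98 times in WT and Ehmt1Δ/+ of the 384-well plates, and 2.82 and 3.08 times in iTg and Ehmt1Δ/+; iTg. The ratio was therefore alike between WT and Ehmt1Δ/+ and lower in both pools with CamKII-CreER. Oligodendrocytes gave 4.22, 4.90, 6.91, 6.75, 3.36 and 3.45 and microglia 3.45, 3.63, 3.94, 4.26, 2.33 and 2.51, in the same order. Among single 96-well plates the ratio in neurons ran from 3.53 to 4.07. The copies differ by 1 base, so the ratio rests on the reads that cover it and on how the others were divided, which was not tested. Rnu1b1 had 0.041 to 0.057 times the RPKM of Rnu1a1 in neurons and 0.126 to 0.281 times in microglia, with no overlap between these labels.

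**Figure D5:**
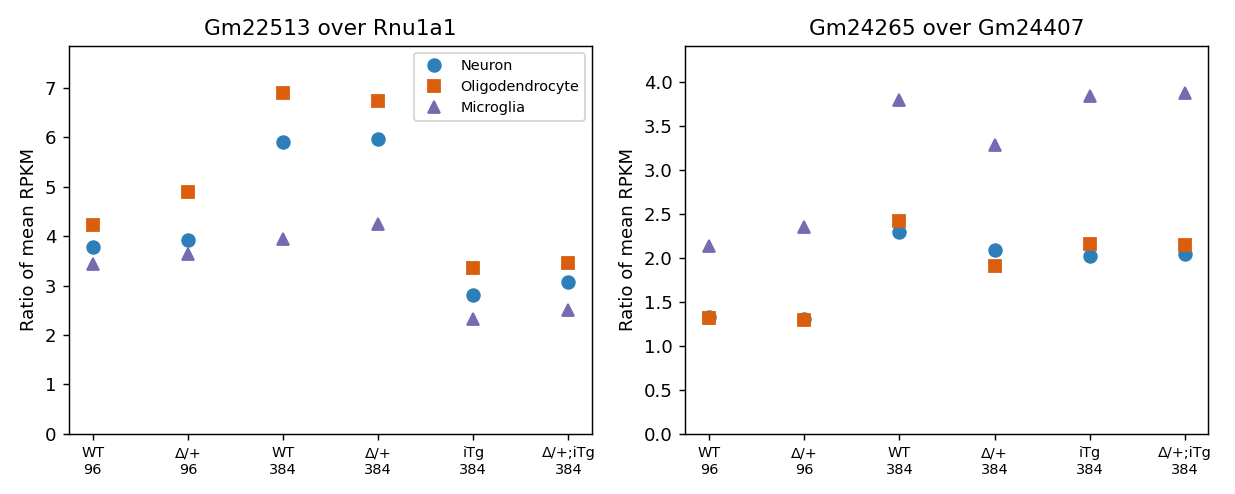
Ratio of mean RPKM of Gm22513 to Rnu1a1 (left) and of Gm24265 to Gm24407 (right) in each of the 6 pools and 3 cell type labels, with 1 point per pool and label. The left ratio in neurons is 5.90 and 5.98 in WT and Ehmt1Δ/+ of the 384-well plates and 2.82 and 3.08 in the pools with iTg and CamKII-CreER, and the right ratio in neurons is 1.32 and 1.30 in 96-well plates and 2.03 to 2.30 in 384-well plates.

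The proteins that bind or build these RNAs were read from a list of 96 genes, of which 95 could be tested in neurons. None passed an adjusted p of 0.05 by limma, 38 were lower and 20 higher in Ehmt1Δ/+ in both formats, against 35% and 23.6% of all genes, and the median difference was -0.03, the same as over all genes. At an unadjusted p under 0.05 by limma 5 were lower and 0 higher, no larger a share than the 6.99% and 3.19% of all genes. These were Hexim2, which acts with 7SK, Lsm10 of the U7 particle, Gemin7 of the SMN complex that loads Sm proteins, Phax, the snRNA export adaptor, and Brf2, a polymerase III factor of the U6 promoter, with differences from -0.55 to -0.33 and adjusted p from 0.471 to 0.485. None was lower by 1.5-fold in both formats. Snrnp70, the U1 protein that contacts the RNA, had 55.5 and 57.9 RPKM in the 96-well pools, and 81.2 and 76.3 RPKM in the 384-well pools (-0.01 ± 0.11, SE). Snrpn of the Sm core, Sf3b1 of U2, Prpf8 of U5, Sart3, which joins U4 with U6, Snapc4 of the snRNA promoter complex and Ints1 of the Integrator that cuts snRNA 3′ ends had differences between -0.06 and 0.10. The leading genes of the remaining groups had 0.15 (Cdk9, 7SK particle), -0.16 (Lsm7, LSm ring of U6), -0.09 (Ncbp1, export and assembly) and -0.06 (Zcrb1, minor spliceosome).

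Members near the detection limit show where the list ends. Just inside stood Gm24457, Gm23260, Gm24878, Gm24409 and Gm22069, each with 10.2% of neurons in the pool that limited it. Just outside stood Gm24056 with 9.48%, Gm22583 and Gm22549 with 9.80%, Rnu12, the U12 gene of the minor spliceosome, with 9.81%, and Gm25101 with 9.82%. Rnu12 had a mean between 1.04 and 3.04 RPKM in the neuron pools, as low as Rnu11 in the 96-well plates.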

How the data were processed

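RamDA-seq libraries of single sorted nuclei were sequenced. Per the study's methods, the authors aligned trimmed reads to mm10 by HISAT2 2.0.4, counted reads per gene with featureCounts of Subread 1.5.0 at settings stated as default, which the divided reads of the tables do not match, and a Gencode annotation, and removed poor nuclei. They deposited RPKM values (reads scaled to gene length and read total) in 1 table per plate format. Cell type labels came from the authors' clusters.

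Here gene type, place and sequence came from GENCODE M21. Classes needed 80% identity over 80% of the shorter sequence. Read totals were recovered from the steps of the values. RPKM was averaged per pool and label, since the mouse of a nucleus is not labelled, and tested with limma 3.58.1 in R 4.3.3 on log2(RPKM + 0.1), which understates differences of low genes. Genes above 0 in 10% of nuclei of a genotype in both formats were tested. Other steps used Python 3.11.15, pandas 2.3.3 and SciPy 1.17.1. The limma fit was tested on simulated data. The authors tested single nuclei with edgeR, which treats nuclei as replicates.

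The members and lists were chosen with earlier results of these data known. Named are members with a symbol of their own, the 10 highest by mean, the 5 ranking highest and 5 lowest in both formats, the 5 that follow the overlapping gene most closely, the leading genes of the protein list, and Ehmt1. A gene named outside this rule is said to be chosen after its values were seen.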

Additional observations from a re-analysis of the deposited data

How the results depend on the processing

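Of the values for whole comparisons, 30 moved by more than the spread between formats or by 1.5 times. The median of U1 members in neurons (-0.88) was -0.77 with a pseudocount of 1, -0.71 with all 6 pools and -1.08 with the mean of log2 values per nucleus, and in oligodendrocytes -0.64 with all 6 pools (-0.87). The U1 sum (-0.87) was -0.15, -1.51 and -1.81 in the 96-well plates of each shared code alone, and -0.044 for Ehmt1Δ/+ against iTg in the 384-well plates of 1 code, settings chosen after seeing the data. In these settings the U2 sum (-0.18) was -0.53, 0.061, -0.26 and -0.35, and the U4-type sum (-0.27) was 0.30, -0.59, -0.46 and -0.52, so that 1 code turned the direction of each. The U2 sum was also -0.22 by the median over nuclei and -0.12 at 70% identity, and between -0.22 and -0.14 without single plates. The log2 of neurons over oligodendrocytes, counted as reads per nucleus and not in RPM, was 1.86 for U1 (0.18), 1.84 for U2 (0.12) and 1.83 for the U4-type group (0.16). With nuclei thinned to 190000 reads (96-well) and 50000 reads (384-well), the median share of neurons with a U1 member was 39.5% (68.9%) and 13.9% (82.8%), and with a U6-like member 20.7% (32.3%) and 4.27% (18.5%). The members made up 19.3% of snRNA genes at 5% of neurons and 6.51% at 20% (11.9%). No other of these alternatives turned a direction. The other 88 values stayed within the spread.

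No count at an adjusted p of 0.05 by limma changed for members. Without the plate format term, 48 genes were lower and 30 higher at an unadjusted p under 0.05 in neurons (1667 and 761), no member among them. With all 6 pools 592 were lower, and without a filter on low values 1282 were higher. Each format alone gives a value with no test. No paired analysis was possible because the labels give no replicate numbers, beyond the plate format term and the plates of shared codes given above. With 2 pools per genotype and 39940 to 54877 reads per glial nucleus of the 384-well plates, replication and depth both limit what single low copies can show.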
